A study of Mus musculus with 2 samples.

Results

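The 10 genes described here belong to the branches of the unfolded protein response that run through IRE1 with XBP1 and through ATF6. They are the sensor genes Ern1 (which encodes IRE1 alpha) and Atf6, the transcription factor gene Xbp1, the chaperone and folding genes Hspa5 (BiP), Hsp90b1 (GRP94), Dnajb9 (ERdj4) and Pdia4 (ERp72), and the genes of endoplasmic reticulum (ER) associated degradation Sel1l, Edem1 and Herpud1. They were chosen by name, and all 10 were found among the 21937 genes of the deposited table. The RNA was that of mouse embryonic stem (ES) cells, wild type and of a mixed 129Sv-C57Bl/6 strain, grown without feeder cells. One group was given 500 nM ICRF-193, a catalytic inhibitor of topoisomerase II, for 16 h, and the control group was given DMSO, the solvent, for the same time. Each group held 3 libraries of total RNA, pooled as a mean in the deposited table. The labels do not say that the libraries came from separate cultures, so p-values measure the spread between libraries, which may be technical.

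The unfolded protein response matches the folding capacity of the ER to its load of new secretory and membrane proteins. When unfolded proteins build up, IRE1 splices the Xbp1 messenger RNA into the form that encodes the active factor, and ATF6 moves to the Golgi, where proteases release its cytosolic part. The resulting factors act on promoters of chaperone and degradation genes through short sequence elements. A further branch, through the kinase PERK and the factor ATF4, also answers to missing amino acids and shares some target genes. Reads counted per gene do not separate spliced from unspliced Xbp1, nor do they show the protein state of IRE1 or ATF6.

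Values are normalised reads, the reads of a gene after division by its library's size factor. The values of single libraries were recovered from the digits of the deposited means. In each group the letters A, B and C stand for the libraries from the highest to the lowest size factor. A letter is not a replicate number, and libraries of the same letter are not known to be a pair. Some fits and ratios below still set DMSO-A and ICRF-193-A together. A gene was called changed at an adjusted p under 0.05 in the authors' deposited DESeq test, and limma-voom on the recovered reads gave a second test. With 3 libraries against 3, an exact permutation test of a single gene cannot go below p = 0.1, so none was used. The reads recovered per library, all counted to genes, ran from 28060307 to 45012758. With the genes that could not be resolved filled in from their group means, the estimated totals ran from 29462206 to 47576962. The library named A stood apart from B and C in both groups. Across 13046 genes its ratio to B and C rose with exonic length, with a Spearman rho of 0.58 in DMSO and 0.56 in ICRF-193, a description over genes that share these libraries. All 9 ES cell markers had reads in every library, with sums of 123680 to 144931 normalised reads in DMSO and 82503 to 101266 in ICRF-193. The 9 fibroblast markers summed to 18455 in DMSO-A and 21276 in ICRF-193-A, against 1881 to 3396 in the other 4 libraries, with Lum at a mean of 0.33 in each group. The 12 markers of primitive and parietal endoderm, a cell type that secretes much matrix, summed to 96770 and 107660 in the libraries A of DMSO and ICRF-193. In B and C they summed to 34328 and 41269 with DMSO and to 55108 and 51301 with ICRF-193. These sums rest mostly on the matrix genes Sparc, Lamb1, Col4a1, Col4a2 and Lama1. Their DMSO means were 6436 to 19989, against at most 1149 (Dab2) for the other endoderm markers. The part of fibroblast or endoderm cells in the results below was not tested, and in bulk RNA fewer cells of a type and less RNA per cell cannot be told apart.

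A single gene of the 10, Herpud1, changed, and it fell. It encodes a ubiquitin-like membrane protein of the degradation complex. Herpud1 was at 1129, 1660 and 1840 normalised reads in DMSO and at 437, 468 and 550 in ICRF-193, so every treated library lay below every control. In the authors' deposited table it was 3.18-fold lower (log2 fold change -1.67, adjusted p = 1.62e-05). None of the 10 rose. The background was 1.26% of 18759 genes called lower and 5.97% called higher. The other 9 genes had deposited log2 fold changes from -0.42 to 0.24, with a lowest unadjusted p of 0.221. Over all 10 the median deposited log2 fold change was 0.01, as was that of all genes with reads. The median absolute change was 0.21, against 0.34 for all genes with reads, many of which are low. Among genes within 2-fold of each member's own level the median absolute change was 0.23 to 0.33.

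**Figure D1:**
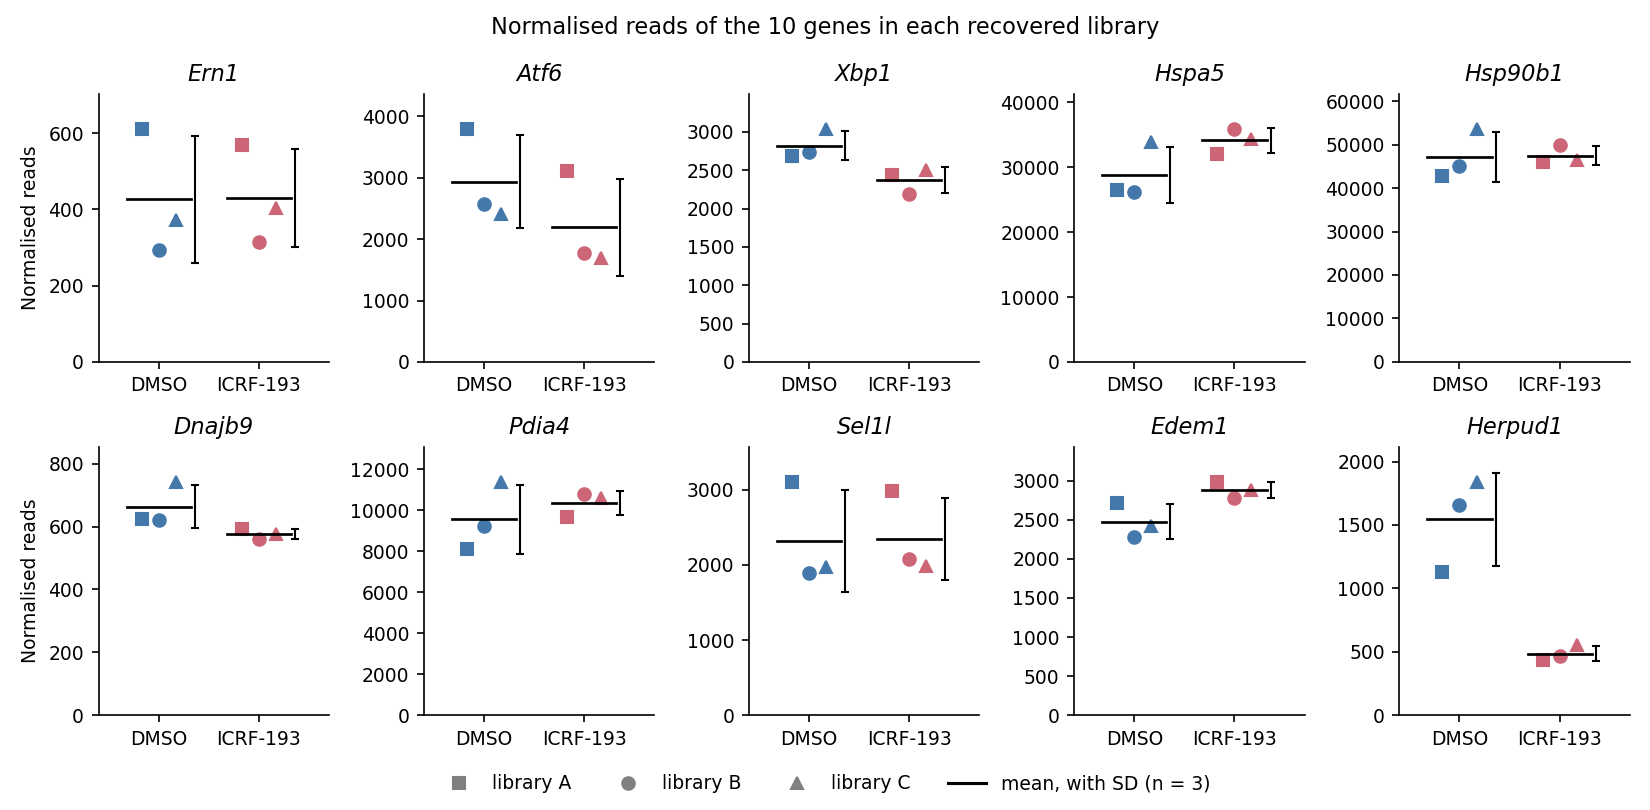
Normalised reads (vertical axes, each from 0) of the 10 genes in the 3 DMSO and 3 ICRF-193 libraries; squares, circles and triangles are libraries A, B and C, horizontal lines the group means, and error bars the SD (n = 3). Herpud1 fell from 1543 to 485, while Ern1, Sel1l and Atf6 vary more between library A and the other libraries than between the groups.

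Taken by level per exonic length, the 10 genes covered a 320-fold range in DMSO. Hsp90b1 was at 16706 ± 2032 normalised reads per kb of exon (mean ± SD, n = 3 here and below), Hspa5 at 7676 ± 1163, Pdia4 at 3988 ± 700 and Xbp1 at 1181 ± 80.8. Herpud1 followed at 790 ± 190. These 5 each differed from their neighbours in the order by more than their spread. Edem1 at 426 ± 38.2, Atf6 at 405 ± 105 and Sel1l at 368 ± 107 did not differ beyond their spread. Dnajb9 was at 269 ± 28.0, within the spread of Sel1l, and Ern1 was lowest at 52.2 ± 20.3. In ICRF-193 Herpud1 was at 248 ± 30 per kb, next to Dnajb9 at 234 ± 6.37, and Edem1 at 495 ± 18.2 took the place below Xbp1 at 994 ± 70.1.

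**Figure D2:**
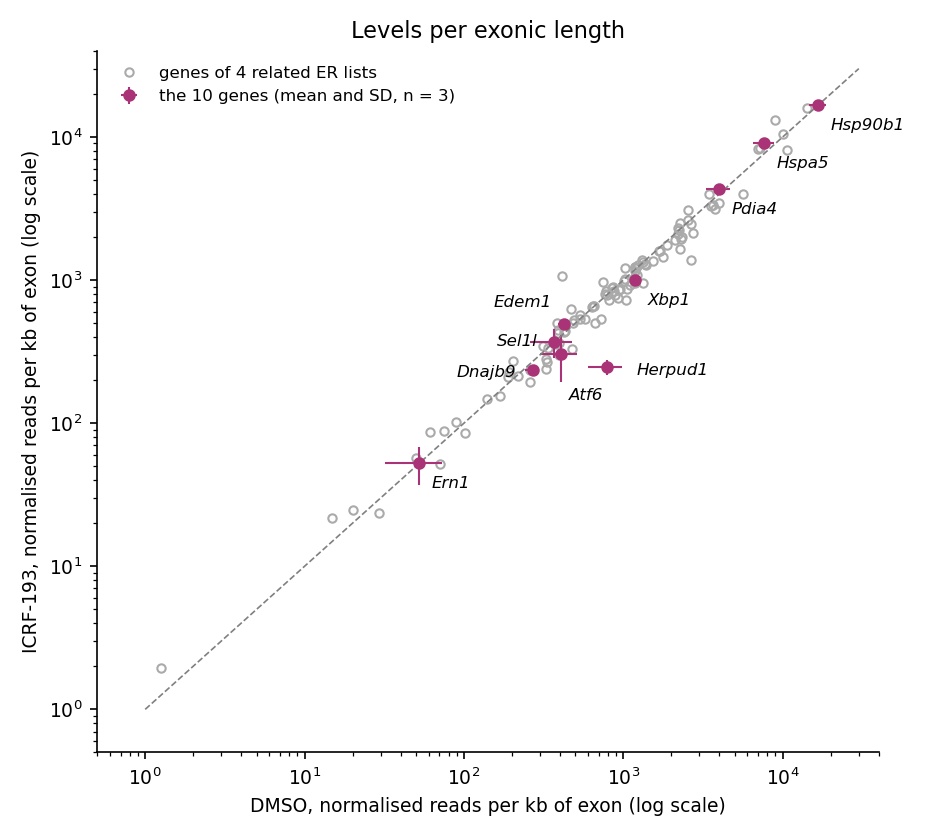
Level per exonic length in DMSO (horizontal axis) and ICRF-193 (vertical axis), both in normalised reads per kb on log scales; filled points are the 10 genes with SD (n = 3), open points the genes of 4 related ER lists, and the dashed line marks equal levels. Herpud1 lies below the line at 790 in DMSO and 248 in ICRF-193, and Hsp90b1 lies on it at 16706 and 16786.

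The sensors were low to moderate in level and did not pass the deposited test. Ern1, the kinase and RNase gene, was at 612, 294 and 373 normalised reads in DMSO and at 569, 315 and 404 in ICRF-193. The groups overlapped, with library A the highest of each. Its deposited log2 fold change was 0.01 (adjusted p = 1). The limma-voom interval ran from -0.78 to 0.82 on all 6 libraries and from -0.25 to 0.28 with a term for the libraries A against B and C. Atf6 was at 3804, 2581 and 2415 in DMSO and at 3107, 1768 and 1701 in ICRF-193. Its groups overlapped because ICRF-193-A lay above DMSO-B and DMSO-C, while treated libraries were lower both among the libraries A (ratio 0.817) and among the libraries B and C (ratio 0.694). The deposited log2 fold change of Atf6 was -0.42 (adjusted p = 0.641). In limma-voom it was -0.45 with a 95% interval from -1.13 to 0.23 (adjusted p = 0.322). Leaving out 1 library moved it from -0.24 (without DMSO-A) to -0.74 (without ICRF-193-A), not called in any of these 6 fits. With the term for libraries A it was -0.44 (adjusted p = 2.08e-04), and without both libraries A it was -0.53 (adjusted p = 1.71e-04).

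Xbp1, the target of IRE1 splicing and itself induced by ATF6, was at 2690, 2731 and 3043 normalised reads in DMSO and at 2431, 2186 and 2506 in ICRF-193. All treated libraries were below all controls. The means were 2822 ± 193 and 2374 ± 168, a deposited log2 fold change of -0.25 that did not pass (adjusted p = 0.745). The limma-voom estimate was -0.25 ± 0.10 (SE), with an interval from -0.50 to 0.00 (adjusted p = 0.157). Xbp1 was called lower in limma-voom with the term for libraries A (adjusted p = 0.0110) and without both of them (adjusted p = 0.0122). Of the 10 genes, 3 had all treated libraries below all controls (Xbp1, Dnajb9 and Herpud1) and 1 had them all above (Edem1). Over 15007 genes tested such a gap was seen downward in 18.8% and upward in 18.6%.

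Hspa5 encodes BiP, the main HSP70 chaperone of the ER lumen, which also holds the sensors inactive. It was at 26442, 26148 and 33852 normalised reads in DMSO and at 32059, 35963 and 34397 in ICRF-193. The groups overlapped through DMSO-C, which lay above ICRF-193-A. The deposited log2 fold change was 0.24 (adjusted p = 0.709), and the limma-voom interval ran from -0.04 to 0.55 (adjusted p = 0.213). With the term for libraries A, Hspa5 passed at a log2 fold change of 0.25 (adjusted p = 0.0153). Without both libraries A it did not (0.24, adjusted p = 0.0582).

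Hsp90b1 encodes GRP94, the HSP90 of the ER lumen. Its levels were 42872, 45002 and 53707 in DMSO and 45942, 49959 and 46359 in ICRF-193, with overlapping groups. The means were 47194 ± 5740 and 47420 ± 2209, a deposited log2 fold change of 0.01 (adjusted p = 1), and the interval in limma-voom ran from -0.25 to 0.27. In GENCODE M21, 14.7% of its exonic bases (415) also lie in 1810014B01Rik, a pseudogene on the other strand with a DMSO mean of 142. With no statement on whether the kit keeps strand, the reads of this stretch cannot be told apart. Pdia4, a disulfide isomerase, was at 8086, 9222 and 11391 in DMSO and at 9659, 10795 and 10604 in ICRF-193. Its groups overlapped, and the deposited log2 fold change was 0.11 (adjusted p = 0.916) with a limma-voom interval from -0.21 to 0.46. Dnajb9, a J-domain partner of BiP that restrains IRE1, was at 624, 622 and 742 in DMSO. It was at 591, 560 and 577 in ICRF-193, below every control, but the deposited change of -0.20 on the log2 scale did not pass (adjusted p = 0.848). Dnajb9 also stayed above the threshold with the term for libraries A (adjusted p = 0.0851) and without them (adjusted p = 0.0667) in limma-voom.

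Of the degradation genes Sel1l, Edem1 and Herpud1, only Herpud1 passed the deposited test. The differences between these genes were not tested. Sel1l, the scaffold of the HRD1 ubiquitin ligase, was at 3107, 1891 and 1975 in DMSO and at 2978, 2076 and 1985 in ICRF-193. Library A was the highest in both groups, the groups overlapped, and the deposited log2 fold change was 0.01, with a limma-voom interval from -0.57 to 0.61. Edem1, a lectin-like protein that hands misfolded glycoproteins to degradation, was at 2721, 2286 and 2423 in DMSO. Its 3 treated libraries, at 2986, 2775 and 2878, lay above every control. The deposited log2 fold change of 0.22 did not pass (adjusted p = 0.810), nor did limma-voom on all libraries (0.22 ± 0.10 SE, adjusted p = 0.199). Edem1 passed limma-voom with the term for libraries A (adjusted p = 0.00638) and without both of them (adjusted p = 0.00759).

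Herpud1 was also called in limma-voom on all 6 libraries, where its log2 fold change was -1.64 ± 0.22 (SE) with an interval from -2.17 to -1.11 (adjusted p = 0.00758). Without both libraries A it was -1.79 (adjusted p = 6.32e-07). The values rested on 1418, 1673 and 1703 whole reads in DMSO and 435, 451 and 490 in ICRF-193. The ratio of treated to control was 0.387 between the libraries A and 0.291 between the libraries B and C. Leaving out each library in turn gave log2 fold changes from -1.86 to -1.50, and the call was lost without ICRF-193-B (adjusted p = 0.0504). Among the 12130 genes with a mean of at least 100 normalised reads, Herpud1 had the 12th lowest deposited log2 fold change. Of the 4402 genes within 2-fold of its level, 3 had a lower one. These genes were not tested against Herpud1, nor was the difference between Herpud1 and the other 9 genes.

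**Figure D3:**
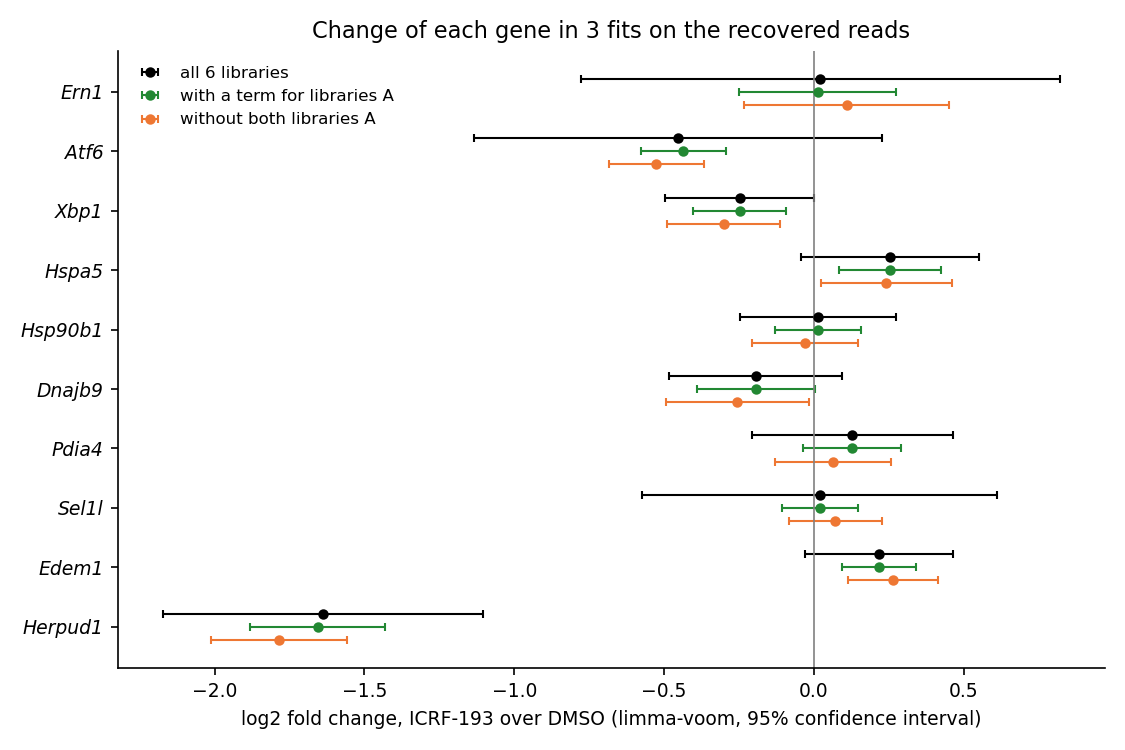
log2 fold change of ICRF-193 over DMSO (horizontal axis) for each gene in limma-voom on all 6 libraries (black), with a term for the libraries A (green) and without both libraries A (orange); bars are 95% confidence intervals. The 3 intervals of Herpud1 lie below 0, and those of Hsp90b1, Ern1, Sel1l and Pdia4 include 0 in each fit.

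In the fit with the term for libraries A, 5 of the 10 genes were called: Hspa5 and Edem1 higher, and Xbp1, Atf6 and Herpud1 lower. This fit called 27.1% of all genes tested higher and 32.6% lower, so 2 and 3 of 10 stood near the background. Without both libraries A the genes called were Edem1 (higher) and Xbp1, Atf6 and Herpud1 (lower), against 24.1% and 29.8% of all genes. With all 6 libraries limma-voom called 1 of 10, Herpud1, against 5.94% lower and 9.74% higher overall. The term assumes that library A is shifted alike in both groups, which was not tested.

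The 10 genes themselves split by exonic length in how library A related to B and C. The log2 ratio of A to the mean of B and C was above 0 in both groups for the 4 longest, Edem1 (5817 bases), Sel1l (6318), Atf6 (7246) and Ern1 (8157). It reached 0.88 in DMSO and 0.66 in ICRF-193 for Ern1, and 0.61 and 0.84 for Atf6. For the other 6, from 1952 bases in Herpud1 to 3754 in Hspa5, it was at most 0.06. Herpud1 had the lowest values, -0.63 in DMSO and -0.22 in ICRF-193. The part of library A in the spread of these genes was not tested beyond the fits above.

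**Figure D4:**
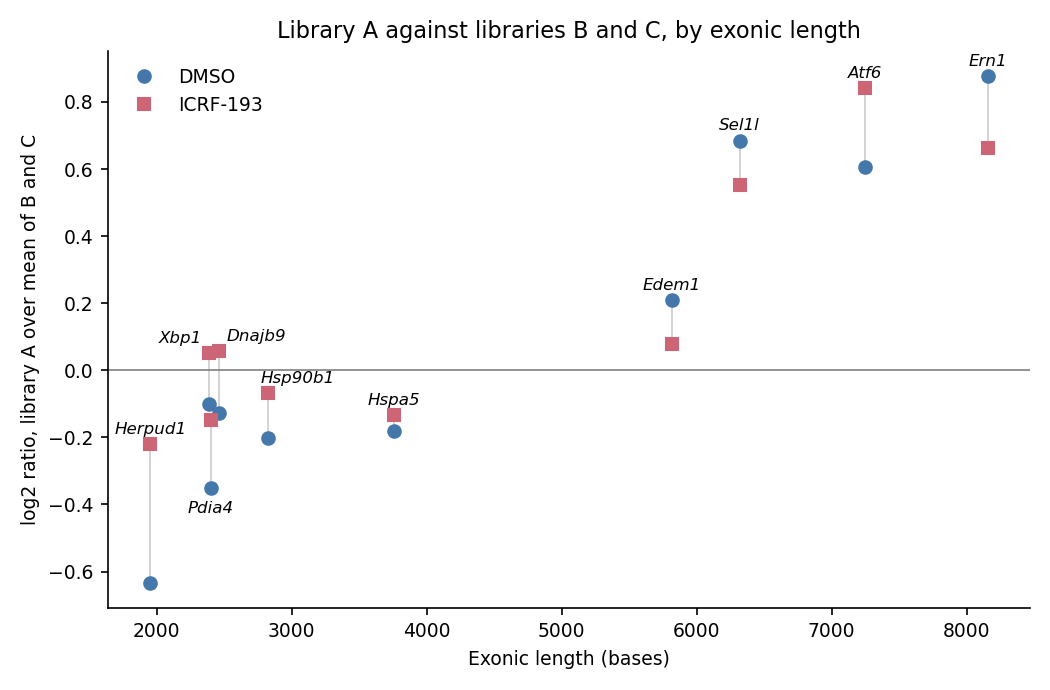
log2 ratio of library A to the mean of libraries B and C (vertical axis) against exonic length in bases (horizontal axis) for the 10 genes, in DMSO (circles) and ICRF-193 (squares). The 4 genes of 5817 bases or more lie above 0 in both groups, and the 6 of 3754 bases or fewer lie at or below 0.06.

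Promoter sequences were examined because these genes are known targets of shared factors, and because Herpud1 fell while Hspa5 and Hsp90b1 did not pass the test. The RefSeq windows (build GRCm38.p6, 250 bases before to 50 after the start) held 9 of the 10 genes; Atf6 had no entry. The motifs were searched on both strands. The ER stress response element (ERSE), CCAAT and then CCACG after 9 bases of any kind, was in 39 of 32851 windows (0.119%), among them those of Hspa5 and Hsp90b1, the latter with 2 matches. The second such element (ERSE-II), ATTGG and then CCACG after 1 base of any kind, was in 12 windows (0.0365%), and Herpud1 was the one gene of the 9 with it. The unfolded protein response element (UPRE), TGACGTGG, was in 222 windows (0.676%) and in none of the 9. Its shorter core, ACGTGG, was in 2729 (8.31%), among them Dnajb9 and Herpud1, where it overlaps the ERSE-II. The amino acid response element bound by ATF4, TGATGNAA, was in 1304 windows (3.97%), with Herpud1 again the one gene of the 9. Of all 32851 windows, that of Herpud1 was the single one with both an ERSE-II and an amino acid response element. The pair was counted after Herpud1 was seen to fall, and with only 12 ERSE-II windows few could hold both. A link between the pair and the fall was not tested. Each stretch below runs 5′ to 3′ in the direction of its gene, with the matches to ERSE, ERSE-II or the amino acid response element in capitals. All end before the start of the gene.
Hspa5, chr2:34772015-34772053, plus strand, with an ERSE starting 65 bases upstream: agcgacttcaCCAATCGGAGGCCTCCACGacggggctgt
Hsp90b1, chr10:86705523-86705666, minus strand, with ERSEs starting 212 and 107 bases upstream, the second on the other strand: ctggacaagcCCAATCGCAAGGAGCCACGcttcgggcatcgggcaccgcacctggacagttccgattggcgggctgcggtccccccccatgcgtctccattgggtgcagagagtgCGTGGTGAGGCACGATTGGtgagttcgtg
Herpud1, chr8:94386307-94386397, plus strand, with an amino acid response element on the other strand starting 112 bases upstream and an ERSE-II starting 52 bases upstream: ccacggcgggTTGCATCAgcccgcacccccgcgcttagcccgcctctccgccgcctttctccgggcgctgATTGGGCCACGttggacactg
Chac1, chr2:119351039-119351066, plus strand, with an amino acid response element on the other strand starting 193 bases upstream: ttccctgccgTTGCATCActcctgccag
Vldlr, chr19:27216810-27216837, plus strand, with an amino acid response element on the other strand starting 200 bases upstream: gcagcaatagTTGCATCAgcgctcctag
Calr, chr8:84847065-84847103, minus strand, with an ERSE on the other strand starting 162 bases upstream: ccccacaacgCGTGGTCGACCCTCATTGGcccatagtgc
Chac1 and Vldlr are shown because they are the genes of the PERK and ATF4 branch with the lowest deposited fold changes, and Calr because it is the ER chaperone with the highest level per kb in its list. The windows of Atf4, Stc2 and Psat1, which also fell in this branch, held none of the 5 motifs. RefSeq lists a further start for Vldlr, whose window held none either. A match is a description of letters and not of binding, and the windows of Xbp1, Ern1, Pdia4, Sel1l and Edem1 held none of the 5 motifs. For Pdia4 the last bases of the window were not found in a GENCODE transcript, so its window is less sure than those of the other 8.

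Other genes of the ER folding pathway were counted in lists chosen by function. Of 27 further ER chaperones and folding enzymes none passed the authors' deposited test (2 at an unadjusted p under 0.05). The same test called 1.26% of all genes with reads lower and 5.97% higher. The median deposited log2 fold change of the list was 0.05. Calr, the lectin chaperone calreticulin, was at 28476, 28352 and 36275 normalised reads in DMSO and at 33196, 37460 and 34342 in ICRF-193, with a deposited log2 fold change of 0.17 (adjusted p = 0.841). P4hb, the classical disulfide isomerase, had a deposited log2 fold change of 0.07 (adjusted p = 0.985). In limma-voom 1 of the 27 was called higher (3.70%) and none lower, against 9.74% and 5.94% of all genes tested. The gene called was Pdia3, at 22415, 23339 and 28120 in DMSO and 33014, 38322 and 37107 in ICRF-193 (log2 fold change 0.56, adjusted p = 0.0256). It is named here after its values were seen. No gene of the list was called without DMSO-B, ICRF-193-B or ICRF-193-C. Pdia3 is the disulfide isomerase that works with calreticulin on glycoproteins.

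Of 28 further ER-associated degradation genes none passed in the authors' deposited table (1 at an unadjusted p under 0.05). Of all genes with reads 1.26% were called lower and 5.97% higher there. The list had a median deposited log2 fold change of -0.01 and a range from -0.48 to 0.42. Rad23b, which carries ubiquitinated proteins to the proteasome, was at 21687, 21206 and 21137 in DMSO and at 17000, 13938 and 14884 in ICRF-193, all below the controls. Its deposited log2 fold change of -0.48 did not pass (adjusted p = 0.276), and limma-voom called it (-0.49, adjusted p = 0.0224). In all, limma-voom called 1 of the 28 higher and 1 lower (3.57% each), against 9.74% and 5.94% of all genes tested. It called none of the 28 in 4 of the 6 fits with 1 library left out (all but those without DMSO-A or ICRF-193-A). Aup1, a membrane protein of the degradation machinery, had a deposited log2 fold change of -0.29 (adjusted p = 0.757).

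Of 30 genes of translocation into and export from the ER none passed in the authors' deposited table (0 at an unadjusted p under 0.05). That test called 1.26% of all genes lower and 5.97% higher. In limma-voom Srp68 and Lman1 were called lower, 2 of the 30 (6.67%), against 5.94% of all genes tested. None of the 30 was called without DMSO-B, DMSO-C, ICRF-193-B or ICRF-193-C. The median deposited log2 fold change was -0.06. Ssr2, a subunit of the translocon-associated complex, had a deposited log2 fold change of -0.37 (adjusted p = 0.599), and Sec61a1, the channel subunit, -0.18 (adjusted p = 0.868). Of 23 other sensors, processing enzymes and partner factors 1 rose and none fell in the authors' deposited table, with a median log2 fold change of -0.12. That is 4.35% of the list called higher, against 5.97% of all genes. At an unadjusted p under 0.05 there were 2. Of the 22 genes it tested, limma-voom called 2 higher (9.09%) and 1 lower (4.55%), against 9.74% and 5.94% of all genes. The riser was Creb3l1 (OASIS), a membrane-bound factor of the ER processed like ATF6. Creb3l1 was at 1669, 844 and 724 normalised reads in DMSO and at 3286, 2740 and 2267 in ICRF-193, all above the controls and 2.56-fold higher (log2 fold change 1.36, adjusted p = 0.00181). In limma-voom it was called on all 6 libraries (1.42, adjusted p = 0.0303), but no gene of the list was called in the 5 fits without DMSO-B, DMSO-C, ICRF-193-A, ICRF-193-B or ICRF-193-C. The genes with the highest levels per kb in this list, D10Wsu52e, the ligase that rejoins Xbp1 exons, and Tmbim6, an ER membrane protein that restrains IRE1, had deposited log2 fold changes of -0.25 (adjusted p = 0.711) and -0.12 (adjusted p = 0.966).

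The PERK and ATF4 branch, which shares Herpud1 as a known target, stood in contrast in its counts. Of its 23 genes 16 fell, 2 rose and 5 did not pass in the authors' deposited table, with a median log2 fold change of -0.97. That is 69.6% of the list called lower and 8.70% called higher, against 1.26% and 5.97% of all genes. The 2 that rose were Ddit4 (deposited log2 fold change 1.21, adjusted p = 0.00363) and Atf3 (0.86, adjusted p = 0.0146). On all 6 libraries limma-voom called 3 higher (13.0%) and 16 lower (69.6%), against 9.74% and 5.94% of all genes tested. Without DMSO-B, DMSO-C, ICRF-193-B or ICRF-193-C it called none of the 23 higher. In these fits it called 8, 10, 8 and 9 lower, against 0.716%, 1.33%, 0.502% and 0.779% of all genes. The ATF4 branch was already known to be lower in these data when the list was made, so its direction is not independent evidence. Atf4, the factor itself, was at 8097, 13519 and 12604 in DMSO and at 3249, 4625 and 4685 in ICRF-193 (deposited log2 fold change -1.45, adjusted p = 6.67e-04). Chac1, which degrades glutathione, was at 1161, 1820 and 1613 in DMSO and at 75.3, 111 and 78.6 in ICRF-193 (-4.12, adjusted p = 3.97e-21). Vldlr, a lipoprotein receptor, was at 279, 293 and 276 in DMSO and at 75.3, 84.0 and 44.9 in ICRF-193 (-2.05, adjusted p = 1.04e-09). Stc2, a secreted glycoprotein, had a deposited log2 fold change of -1.77 (adjusted p = 2.93e-04), and Psat1, an enzyme of serine synthesis, one of -1.48 (adjusted p = 1.59e-07). For Atf4, Chac1, Vldlr and Herpud1 every treated library lay below every control, as for Xbp1 and Dnajb9. Among the 23 genes of the branch such a gap was seen downward in 18 and upward in 3. Over 15007 genes tested it was seen downward in 18.8% and upward in 18.6%.

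The list of 23 heat shock genes was mostly cytosolic but also held the mitochondrial Hspd1 and Hspe1 and the factor genes Hsf1 and Hsf2. Of the 23, 2 rose and none fell in the authors' deposited table, with a median log2 fold change of -0.18. That is 8.70% of the list called higher, against 5.97% of all genes. At an unadjusted p under 0.05 there were 3. Of the 22 it tested, limma-voom called 4 higher (18.2%) and 1 lower (4.55%), against 9.74% and 5.94% of all genes. Hspa1a was at 49.4, 43.6 and 60.5 in DMSO and at 145, 223 and 212 in ICRF-193, 3.78-fold higher (adjusted p = 1.01e-07). Hspa1b was at 109, 169 and 202 in DMSO and at 283, 437 and 424 in ICRF-193, 2.38-fold higher (adjusted p = 0.00105). The pair are near-identical copies, so the split of reads between them is uncertain. Hsp90ab1 and Stip1, the highest of the list per kb, had deposited log2 fold changes of -0.37 (adjusted p = 0.474) and -0.25 (adjusted p = 0.734). Hsp90ab1 was not resolved into libraries.

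**Figure D5:**
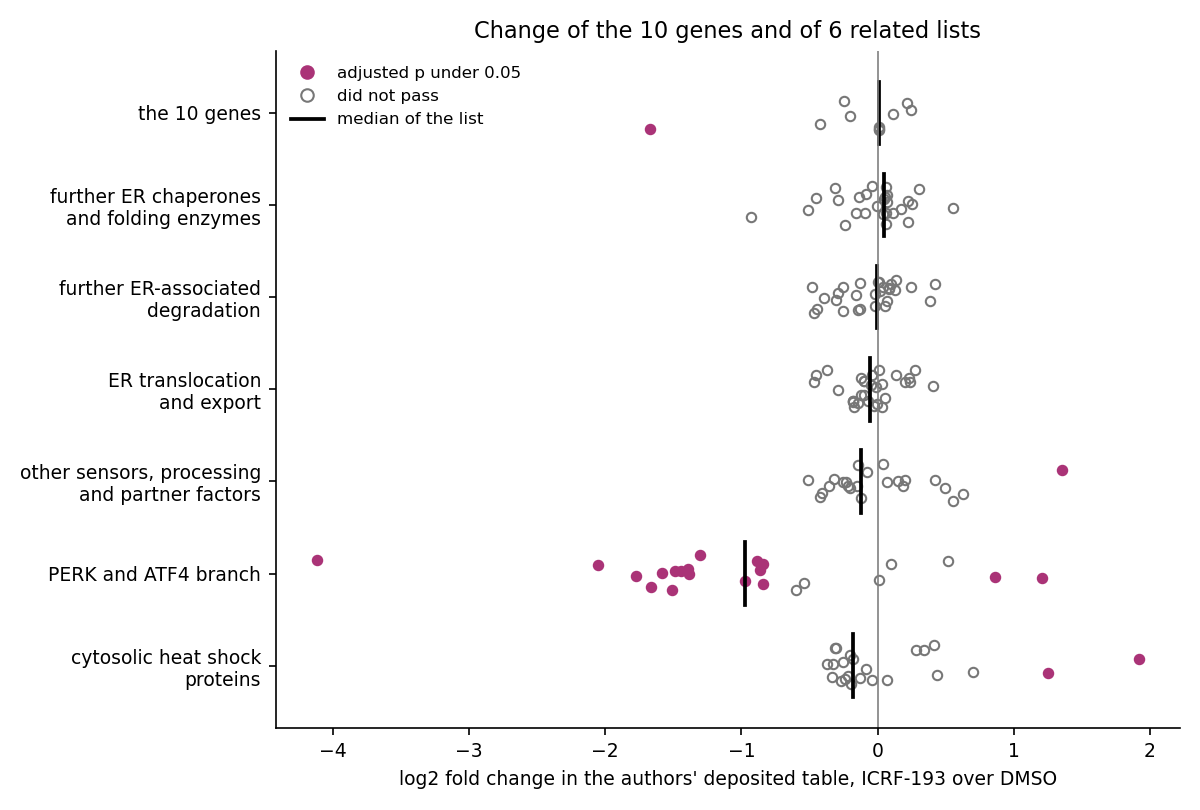
log2 fold change in the authors' deposited table (horizontal axis) of the 10 genes and of the genes of 6 related lists (rows); filled points have an adjusted p under 0.05, open points do not, and thick bars are list medians. The medians of the 10 genes and the 3 lists of ER chaperones, degradation and translocation lie between -0.06 and 0.05, and that of the PERK and ATF4 branch at -0.97.

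The pattern over the 6 libraries was compared with that of 8798 genes with a DMSO mean of at least 500 normalised reads, as Pearson correlations of log2(normalised reads + 1). These are descriptions over 6 libraries that share their depth and the library A shift, with no p. The genes most like Hspa5 were Calr (0.981), Sav1 (0.979), Mcfd2 (0.973), Serping1 and Tpst2 (0.970 each). Calr, the highest of these, is itself an ER chaperone, and Mcfd2 is a cargo receptor for export from the ER. The genes most like Xbp1 were 1110008F13Rik (0.99), Cstf2 (0.988), Zfp668 (0.983), Slc20a2 and 2410131K14Rik (0.981 each). Those most like Herpud1 were Gspt1, Tbp and Bckdhb (0.999 each), Atic and Mepce (0.998 each). Their deposited log2 fold changes, from -0.56 in Mepce to -0.42 in Gspt1, were smaller in size than that of Herpud1, and none of the 5 passed the deposited test.

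Among the 10 genes themselves the highest correlations over the 6 libraries were between Ern1 and Sel1l (0.928), Xbp1 and Dnajb9 (0.918), Hsp90b1 and Pdia4 (0.897), Xbp1 and Herpud1 (0.893), and Hspa5 and Pdia4 (0.875). Ern1 and Sel1l share high values in library A. Hspa5, Hsp90b1 and Pdia4 share their lowest or next lowest DMSO value in DMSO-A and their highest in DMSO-C. The lowest correlation was between Edem1 and Herpud1 (-0.903), whose groups did not overlap and differed in opposite directions.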

How the data were processed

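The deposited table compares total RNA of DMSO and ICRF-193 treated mouse ES cells, with 3 libraries pooled in each group. TopHat, HTSeq, DESeq and build mm9 are listed, per the submitters' processing notes; versions, annotation and strand are not given in the sources used here. In the deposited table each group has a signal column, the authors' mean over its libraries of a gene's reads after scaling by DESeq size factors. The deposited fold column is the ratio of these means, and the deposited log2 column its log2. The deposited p-values are the authors', before and after adjustment over 18759 genes with reads.

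Each mean has 15 printed digits and sums whole reads times 3 library steps. A lattice search gave 1 solution for 18600 genes and 1 with a posterior of at least 0.99 for 139; 20 stayed unresolved. Of the 10 genes, 9 had 1 solution and Hsp90b1 had 2 candidates, of which the posterior kept 1. Simulated reads, with a library A shift shared by both groups built in, were recovered exactly where resolved. The simulation was started from the library steps found in the data, so it did not test how the steps were found. Size factors recomputed from the reads differed by at most 0.036%. Genes with 10 or more recovered reads in 3 or more libraries (15007) were fitted in limma-voom (limma 3.58.1, R 4.3.3), with Benjamini-Hochberg adjustment over all of them. The fits were also run on simulated reads with a library A shift alike in both groups built in. That simulation could not test the term for libraries A where the shift differs between the groups. The planned test was the deposited one, and alternatives were other scalings, filters, a term for libraries A and left-out libraries.

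Exonic lengths are the union of exons in GENCODE M21 (GRCm38), so no mm9 coordinates are given. All 154 genes of the 6 lists were matched by symbol or RefSeq synonym. Genes named from each list were the 3 largest changes that passed with a mean of at least 100 and the 2 highest levels per kb. The 10 genes and the lists were chosen with earlier results of these data known.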

Additional observations from a re-analysis of the deposited data

How the results depend on the processing

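Herpud1 fell in every fit run, with log2 fold changes from -1.86 to -1.50, and lost its call in 1, without ICRF-193-B. The other 9 genes changed their call in 7 cases over the 13 alternatives with a test for each gene, all in the fits with a term for libraries A or without both libraries A. Changes of direction were seen in 3 genes near 0: Hsp90b1 was at -0.030 without both libraries A, at -0.053 without DMSO-A, -0.017 without DMSO-B and -0.025 without ICRF-193-B. Ern1 was at -0.21 without DMSO-B, -0.043 without DMSO-C and -0.21 without ICRF-193-A, and Sel1l at -0.11, -0.079 and -0.17 without the same libraries.

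Against 1 of the 10 genes called in the deposited test and in limma-voom, 5 were called with the library term, 4 without both libraries A and 0 to 1 when 1 library was left out. The ER chaperone list, with 0 called as deposited, had 1 in limma-voom, 9 with the library term, 10 without both libraries A, 2 with total read scaling, 1 with upper quartile scaling, 1 with no low count filter and 0 to 3 with 1 library left out. In the same order the degradation list (0 as deposited) had 2, 12, 12, 2, 2, 1 and 0 to 2, and the translocation list (0 as deposited) had 2, 12, 12, 3, 2, 2 and 0 to 4. The list of other sensors (1 as deposited) had 3, 13, 14, 3, 3, 2 and 0 to 1, and the heat shock list (2 as deposited) had 5, 17, 18, 5, 5, 4 and 1 to 5. For comparison, the library term called 59.7% of all genes tested and the fit without both libraries A 53.8%. The PERK and ATF4 list (18 as deposited) had 8 to 20 with 1 library left out. Over all genes limma-voom called 431 without ICRF-193-B and 3109 without DMSO-A, against 2353 with all 6. Total read scaling raised the median log2 fold change of all genes by 0.13; it called 1887 genes higher and 387 lower, against 1462 and 891. No paired analysis was possible because the deposited columns carry no replicate numbers.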
